A study of Arabidopsis thaliana with 48 samples.

Results

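miR161.1, miR161.2 and miR400 are Arabidopsis thaliana microRNAs that guide cleavage of transcripts of pentatricopeptide repeat (PPR) proteins. They were chosen by name, and are 3 of the 428 miRNA names listed in the deposited tables. A prefix for the species was dropped and a comma before a digit was read as a point. The values used are those of reads of 21 nt in all 12 libraries, and the overlapping products of the single MIR161 precursor, miR161.1 and miR161.2, were compared with each other.

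The study asked how loss of PRMT5 affects which small RNAs accumulate in closed flower buds and which of them AGO1 carries. Plants grown on soil in long days, with no treatment, were of the Col0 wild type or carried the atprmt5-2 or the atprmt5-6 mutant allele, and each genotype gave 2 libraries of total small RNA and 2 libraries of RNA recovered by anti-AGO1 immunoprecipitation (AGO1-IP). The libraries of a group are described as biological duplicates, and neither the nature of the alleles nor the number of plants behind a library is given in the sources used here. PRMT5 transcripts were not measured, so the genotypes were not checked in these data.

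PPR proteins are a large plant family that binds organellar RNA in mitochondria and chloroplasts, where they act in cleavage, editing and translation. Plant miRNAs are cut from a hairpin by DICER-LIKE1, and one strand enters AGO1, which favours guides that begin with U and cuts near-complementary mRNA. Cleaved PPR transcripts are a known source of secondary, phased small RNAs, and PRMT5 places symmetric methyl marks on arginines of its substrates, AGO1 among them.

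The mature sequences are shown because all results below turn on these guides, and because both MIR161 products share part of their bases. They are RefSeq annotations of TAIR10.1, read 5′ to 3′, with the seed (bases 2 to 8) in capitals.
miR161.1: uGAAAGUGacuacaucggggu
miR161.2: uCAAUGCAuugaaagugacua
miR400: uAUGAGAGuauuauaagucac
All are 21 nt long and begin with U, and their seeds all differ. miR161.1 lies at chr1:17825731-17825751 and miR161.2 at chr1:17825722-17825742, both on the plus strand in MIR161 (AT1G48267). miR400 lies at chr1:11785947-11785967 on the plus strand in MIR400 (AT1G32582). The 102 nt miR400 precursor lies inside the protein-coding gene AT1G32583, ahead of its coding start, and in 1 of its 2 annotated transcripts the mature sequence is intronic.

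The MIR161 products are offset by 9 nt and share 12 nt, shown here in capitals within the 30 nt that both together cover, chr1:17825722-17825751.
miR161.2 to miR161.1 span: ucaaugcauUGAAAGUGACUAcaucggggu
The shared bases are the last 12 of miR161.2 and the first 12 of miR161.1, so that the seed of miR161.1 lies in the 3′ part of miR161.2. Within the 173 nt precursor (chr1:17825685-17825857), shown with both products in capitals, miR161.2 covers positions 38 to 58 and miR161.1 positions 47 to 67 of the 5′ arm.
MIR161 precursor: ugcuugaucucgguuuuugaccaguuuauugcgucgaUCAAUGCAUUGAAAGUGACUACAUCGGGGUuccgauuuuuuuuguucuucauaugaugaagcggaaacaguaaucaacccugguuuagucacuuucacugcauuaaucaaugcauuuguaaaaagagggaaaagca
The products start at different bases, and how the authors assigned reads to each is not given in the sources used here.

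The name of the group was checked against annotated mRNAs by searching the mRNAs of all genes for sites complementary to each guide, without gaps. A mismatch cost 1 and a G:U pair 0.5, both doubled at guide positions 2 to 13, and sites scoring at most 4 were kept. miR161.1 had sites in 13 genes, miR161.2 in 24 and miR400 in 24, of which 6, 13 and 17 are annotated as PPR genes. In all, 34 genes held a site, 0.108% of 31346, and 20 of these were among the 279 annotated PPR genes, which are 0.890% of all genes. Another 9 are annotated as tetratricopeptide-like, a label often given to members of the same repeat family, and 5 carry other labels. Those are RNA processing factor 2 (AT1G62670), the cupin gene AT2G28680 and the uncharacterized AT1G34610, AT3G09170 and AT5G63625. A label does not settle family membership, and AT1G62670 held a site of every guide. Every PPR site lay in the coding sequence. A match is a description of the sequence and no measurement of cleavage.

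The sites of the MIR161 products coincided as the guides do. All 13 genes with a miR161.1 site also had a miR161.2 site, and in 11 of them the latter began 9 nt downstream of the former. A miR400 site was present in 9 of these 13 genes, always 221 nt downstream of the miR161.1 site, and of those 9 genes 8 are on chromosome 1 and 1, AT5G16640, is on chromosome 5. The sites in AT1G06580, a PPR gene with all 3 and the only fully paired miR400 site, are shown with Watson-Crick paired bases in capitals.
AT1G06580 site of miR161.1: gCCCgGAUGUAaUCACUUUCA
AT1G06580 site of miR161.2: UAaUCACUUUCAgUGCuUUGA
AT1G06580 site of miR400: GUGACUUAUAAUACUCUCAUA
These lie on the minus strand at chr1:2015171-2015191, chr1:2015162-2015182 and chr1:2014950-2014970. Their scores were 3.5 for miR161.1, 4 for miR161.2 and 0 for miR400. The best sites scored 2.5 for miR161.1, found in 7 genes with AT1G62670 and AT1G62910 among them, and 1 for miR161.2, found in AT1G62590, AT1G63330 and AT5G41170.

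**Figure D1:**
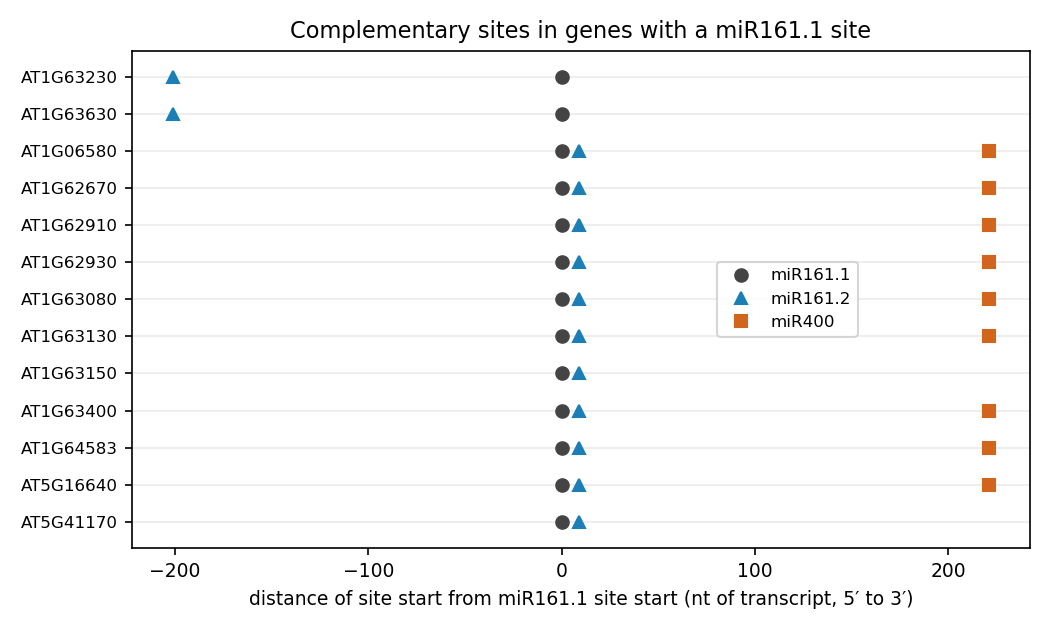
Positions of complementary sites along transcripts of the 13 genes with a miR161.1 site, in nt from the start of that site (circles), with miR161.2 sites as triangles and miR400 sites as squares. miR161.2 sites start 9 nt downstream in 11 genes and at -201 nt in 2, and all 9 miR400 sites start 221 nt downstream.

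Levels are given in RPM, the usual reads-per-million measure, with the 21 nt reads of the same library as denominator. The 21 nt reads per total library ranged from 571191, in wild-type replicate 1, up to 1397552, and per AGO1-IP library from 3750509 up to 8166912. Annotated miRNAs took 23.0% to 32.9% of the reads of total libraries but 70.5% to 74.8% of those of AGO1-IP libraries, so a miRNA that keeps its share of all miRNA reads gains RPM in AGO1-IP. No member was listed among reads of 22 or 24 nt in any library. For each genotype, inputs of the immunoprecipitation gave the total libraries and its products the AGO1-IP libraries, so they may not be independent.

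In total small RNA, miR161.1 was about 2-fold more abundant in both mutants than in wild type, while miR161.2 and miR400 showed no call. miR161.1 stood at 984 and 1869 RPM in wild type. It stood at 3308 and 2510 RPM in atprmt5-2 and at 3403 and 2812 RPM in atprmt5-6. All 4 mutant libraries lay above both wild-type libraries, which themselves differed by more than their counting error, at 562 and 2463 reads. In limma on log2(RPM + 1), the scale of all log2 values here except those of the ratio of the MIR161 products, miR161.1 rose by 1.09 in atprmt5-2 (SE 0.29, adjusted p = 0.0315). Its rise in atprmt5-6 was 1.19, with the same SE and an adjusted p of 0.0167. Both fits share the wild-type libraries and are not independent.

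miR161.1 was 1 of the 3 members called in each allele, where 15.6% of the 128 miRNAs tested were called in atprmt5-2 and 20.3% in atprmt5-6. Calls to the higher side were 3.12% in atprmt5-2 and 3.91% in atprmt5-6, a balance that depends on the scaling. Higher and lower calls numbered 4 and 16 in atprmt5-2 and 5 and 21 in atprmt5-6, whereas values centred on each library's median gave 14 higher with 4 lower and 20 higher with 2 lower. TMM factors in edgeR gave 11 higher with 3 lower and 5 higher with 2 lower. The median over all tested miRNAs was -0.44 in atprmt5-2 and -0.67 in atprmt5-6, so miR161.1 stood 1.53 and 1.86 above it and ranked 6 and 8 from the top. The size of this rise rests in part on wild-type replicate 1. Without that library it was 0.62 in atprmt5-2 (adjusted p = 0.21) and 0.73 in atprmt5-6 (adjusted p = 0.12), still positive and no longer called. It also lost the call in a fit of the total libraries alone (adjusted p = 0.166 and 0.111) and without either total library of the mutant concerned, at 0.89 and 1.29 in atprmt5-2 and 1.05 and 1.33 in atprmt5-6.

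miR161.2, cut from the same hairpin, did not follow miR161.1. It stood at 716 and 387 RPM in wild type, 486 and 354 RPM in atprmt5-2 and 371 and 313 RPM in atprmt5-6. The wild-type and atprmt5-2 libraries overlapped, whereas both atprmt5-6 libraries lay below both wild-type libraries. The log2 differences from wild type were -0.34 (SE 0.30, adjusted p = 0.45) and -0.63 (SE 0.30, adjusted p = 0.13), within 0.10 of the median of tested miRNAs in both alleles. They were 0.20 and 0.17 after centring on the median miRNA, so no direction is given for miR161.2 in total small RNA.

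miR400 was rare in every library. In total small RNA it had 5 and 16 reads in wild type, 9 and 3 in atprmt5-2 and 7 and 5 in atprmt5-6. These gave 8.75 and 12.1 RPM in wild type, 7.13 and 2.72 RPM in atprmt5-2 and 5.01 and 3.88 RPM in atprmt5-6. Both wild-type libraries lay above the 4 mutant libraries, but the counting interval of the lower one, 2.84 to 20.4 RPM, covered most of their range. The log2 difference was -1.04 for atprmt5-2 (SE 0.40, adjusted p = 0.095) and, with an equal SE, -1.06 for atprmt5-6 (adjusted p = 0.064), neither of them a call. With values scaled to miRNA reads they were -1.21 and -1.20 and passed in both alleles (adjusted p = 0.0213 and 0.0178, limma).

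**Figure D2:**
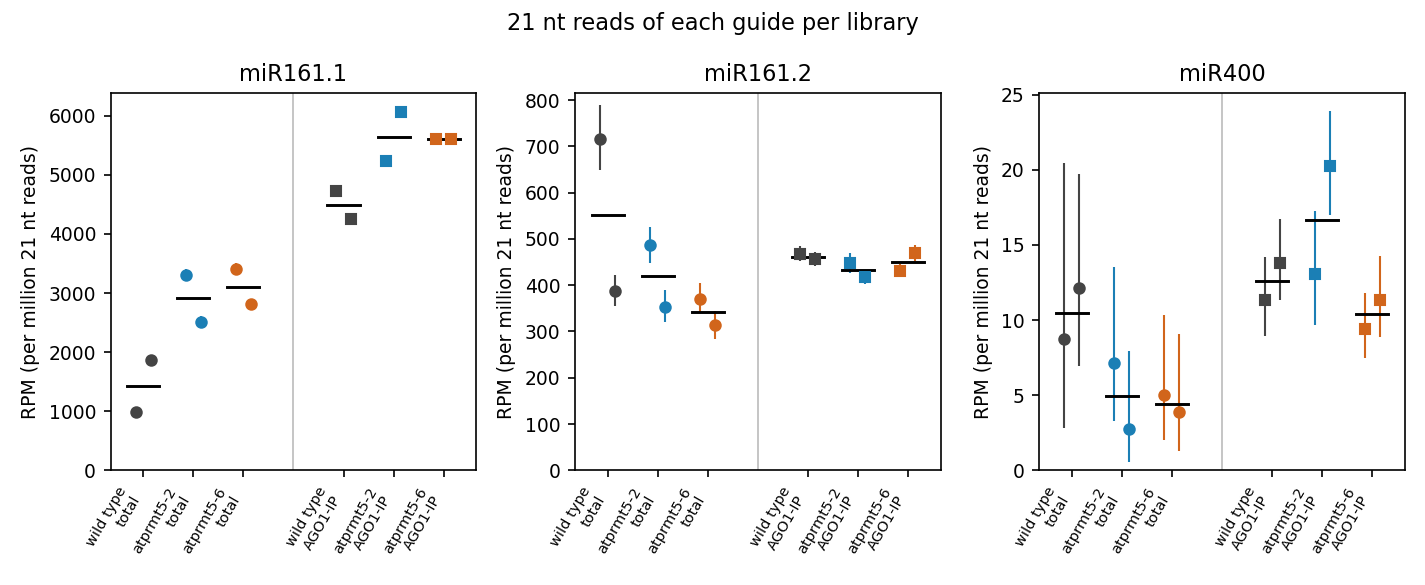
RPM of miR161.1, miR161.2 and miR400 in each library (circles, total; squares, AGO1-IP), with the group mean as a black line and 95% Poisson intervals of the read counts as vertical bars. miR161.1 in total small RNA lies at 984 and 1869 RPM in wild type and between 2510 and 3403 RPM in the mutants, and miR400 stays at or below 20.2 RPM.

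In AGO1-IP the genotypes were closer together. miR161.1 stood at 4722 and 4248 RPM in wild type, 5229 and 6056 RPM in atprmt5-2 and 5602 and 5600 RPM in atprmt5-6. Here too the 4 mutant libraries lay above both wild-type libraries, by a smaller margin. The log2 differences were 0.33 (95% interval -0.32 to 0.98) and 0.32 (95% interval -0.33 to 0.97), with adjusted p of 0.73 and 0.77.

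miR161.2 in AGO1-IP was nearly level across genotypes. It had 467 and 456 RPM in wild type, 447 and 417 RPM in atprmt5-2 and 431 and 469 RPM in atprmt5-6. The log2 differences were -0.10 (95% interval -0.77 to 0.58) and -0.04 (95% interval -0.72 to 0.64). Its groups overlapped in atprmt5-6 but not in atprmt5-2.

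miR400 in AGO1-IP had 11.3 and 13.8 RPM in wild type, 13.1 and 20.2 RPM in atprmt5-2 and 9.43 and 11.3 RPM in atprmt5-6, from 49 to 137 reads. Its log2 differences were 0.35 (95% interval -0.54 to 1.25) and -0.26 (95% interval -1.15 to 0.64). limma called 0 of the 3 members in AGO1-IP in either allele, and 3.91% of tested miRNAs in atprmt5-2 and 0.781% in atprmt5-6. Those are 5 and 1 miRNAs, and 9 and 7 were called with the replicate number as a block, none of them a member. The members' unadjusted p ranged from 0.286 to 0.901, and edgeR and DESeq2 called none of the members either.

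Loading, which is AGO1-IP minus total on the log2 scale within a genotype, was higher for miR161.1 than for the other members in wild type. It was positive for miR161.1 in all genotypes per 21 nt reads, but relative to all miRNA reads it was near 0 or negative. In wild type miR161.1 rose by 1.72 (SE 0.29, adjusted p = 0.000528), from a mean of 1426 ± 626 RPM to 4485 ± 336 RPM (SD, n = 2), against a median of 0.23 over tested miRNAs. The rise was 0.97 in atprmt5-2 (adjusted p = 0.0151) and 0.86 in atprmt5-6 (adjusted p = 0.0294), each with an SE of 0.29, where the medians were 0.62 and 0.69. In each genotype both AGO1-IP libraries exceeded both total libraries. The mutant calls depended on single libraries. That in atprmt5-2 was lost without its total replicate 2 (0.77) or AGO1-IP replicate 3 (0.86), and that in atprmt5-6 without its total replicate 2 (0.72), AGO1-IP replicate 1 (0.86) or AGO1-IP replicate 3 (0.86), and also with no filter on low values (adjusted p = 0.0524). As a share of annotated miRNA reads, however, loading of miR161.1 was 0.20 in wild type and below 0 in the mutants (-0.41 and -0.56). None of these was called. With TMM factors in edgeR it was 1.42 in wild type, still called, and 0.08 and 0.06 in the mutants, not called. DESeq2 likewise called it in wild type (1.20) and in neither mutant. Centring on the median miRNA kept the call in every genotype, at 2.33 in wild type and 1.08 and 0.83 in the mutants.

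miR161.2 gained no RPM in AGO1-IP that passed the test. Its loading was -0.19 in wild type (adjusted p = 0.64), 0.06 in atprmt5-2 (adjusted p = 0.87) and 0.40 in atprmt5-6 (adjusted p = 0.29), with an SE of 0.30 throughout. Scaled to miRNA reads it was called lower in all 3 genotypes, at -1.71, -1.31 and -1.01 (adjusted p = 0.000889, 0.00632 and 0.0237, limma).

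Loading of miR400 was called in both mutants and not in wild type. Its loading was 0.26 (SE 0.40, adjusted p = 0.64) in wild type, 1.65 in atprmt5-2 (adjusted p = 0.00504) and 1.07 in atprmt5-6 (adjusted p = 0.0416), each with that SE. Its wild-type groups overlapped, at 8.75 to 12.1 RPM in total and 11.3 to 13.8 RPM in AGO1-IP, while both mutant alleles had AGO1-IP libraries above both total libraries. The mutant values rest on 3 to 9 reads in each total library. Without atprmt5-2 total replicate 2, which had 3 reads, loading in atprmt5-2 was 1.09 and still called, and the atprmt5-6 call was lost without any 1 of its 4 libraries (0.92 to 1.22) and with no filter on low values (adjusted p = 0.098). Both mutant calls were lost when values were scaled to miRNA reads, at 0.46 in atprmt5-2 and -0.16 in atprmt5-6. In wild type loading was then -1.15 and called (adjusted p = 0.0122, limma). Neither mutant was called by edgeR with TMM factors (0.86 and 0.43) or by DESeq2 (0.97 and 0.46). Centring on the median miRNA gave a call in every genotype, at 0.87 in wild type and 1.77 and 1.04 in the mutants.

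The members called in loading were 1 of 3 in wild type and 2 of 3 in each mutant, all to the higher side. Among all tested miRNAs 40.6% were called in wild type, 55.5% in atprmt5-2 and 60.2% in atprmt5-6. Calls to the higher side were 20.3%, 36.7% and 40.6%. That balance depends on the scaling. The calls were 26 higher and 26 lower in wild type, 47 and 24 in atprmt5-2 and 52 and 25 in atprmt5-6 per 21 nt reads, but 4 and 86, 3 and 46, and 3 and 52 when scaled to miRNA reads. With TMM in edgeR they were 20 and 34, 12 and 36, and 17 and 37. All members begin with U, and so did 89 of the 128 tested miRNAs, whose median loading in wild type was 0.53. The wild-type median was -0.80 for 18 beginning with A, -0.83 for 13 beginning with C and -5.71 for 8 beginning with G.

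Loading was not shown to differ between genotypes for any member. For miR161.1 the loading in the mutant minus that in wild type was -0.76 for atprmt5-2 (adjusted p = 0.38) and -0.87 for atprmt5-6 (adjusted p = 0.39), each with an SE of 0.41, while the medians of tested miRNAs were 0.42 and 0.46. It ranked 125 and 124 of 128 from the highest. Without wild-type total replicate 1 the differences of miR161.1 shrank to -0.30 and -0.40. For miR400 the differences were 1.39 (SE 0.57, adjusted p = 0.24) and 0.81 (SE 0.57, adjusted p = 0.54), and for miR161.2 they were 0.25 (SE 0.43, adjusted p = 0.85) and 0.59 (SE 0.43, adjusted p = 0.54). limma called 0 of the 3 members in both alleles, and 0% and 0.781% of tested miRNAs, where 18 and 16 miRNAs had an unadjusted p under 0.05. By edgeR and by DESeq2, 0 miRNAs were called.

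Between the alleles, no member differed in limma. The log2 differences of atprmt5-6 from atprmt5-2 in total small RNA were 0.10 (95% interval -0.55 to 0.75) for miR161.1, -0.28 (95% interval -0.96 to 0.40) for miR161.2 and -0.02 (95% interval -0.92 to 0.87) for miR400. In AGO1-IP they were -0.01 (95% interval -0.66 to 0.64), 0.06 (95% interval -0.62 to 0.74) and -0.61 (95% interval -1.50 to 0.29). limma called 0 of the 3 members and 0% of tested miRNAs in either fraction, where 7 and 1 miRNAs had an unadjusted p under 0.05. By edgeR and by DESeq2, 0 were called. The intervals of miR400 were the widest of the members.

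**Figure D3:**
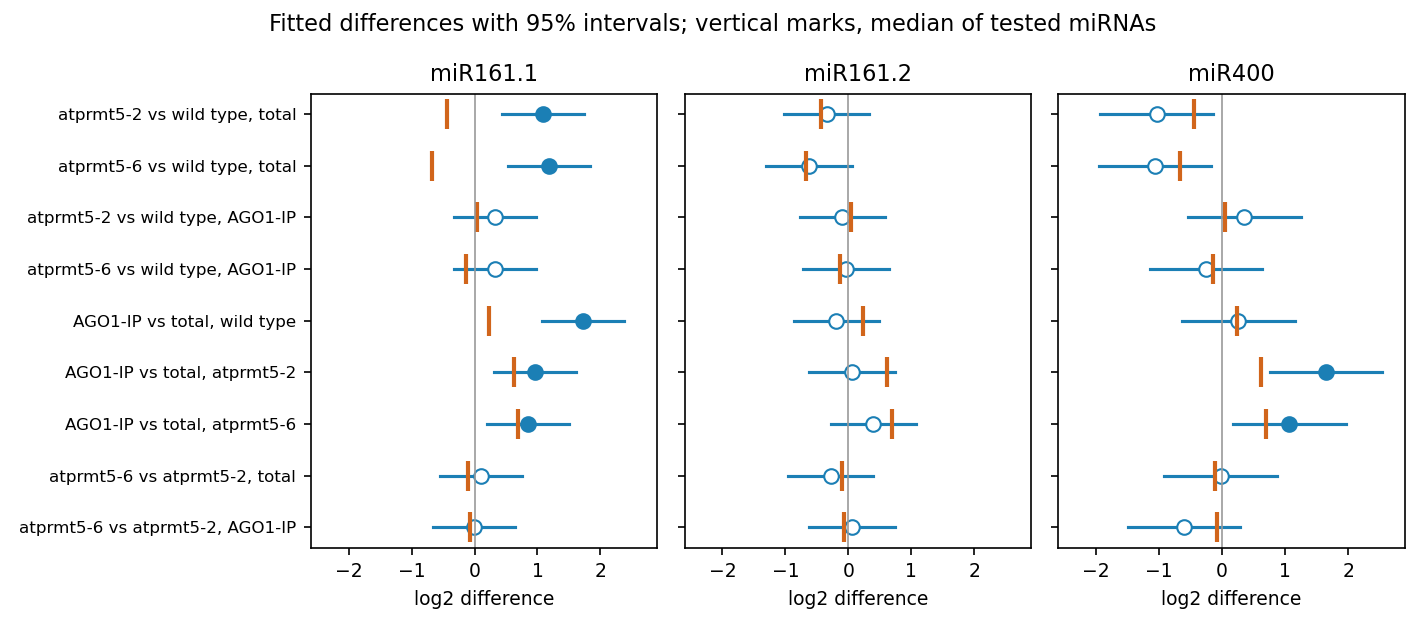
Log2 differences of the members in each limma comparison (horizontal axis), with 95% intervals as lines, filled circles where the adjusted p was under 0.05 and the median of the 128 tested miRNAs as a vertical mark. miR161.1 lies at 1.09 and 1.19 in total small RNA of the mutants, where the medians are -0.44 and -0.67, and the loading of miR400 passes in both mutants at 1.65 and 1.07.

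The ratio of miR161.1 to miR161.2 compares products of 1 hairpin within 1 library, so that the scaling of a library does not enter it. In total small RNA it was 1.37 and 4.83 in wild type, 6.80 and 7.09 in atprmt5-2 and 9.18 and 8.98 in atprmt5-6. In AGO1-IP it was 10.1 and 9.31 in wild type, 11.7 and 14.5 in atprmt5-2 and 13.0 and 11.9 in atprmt5-6. miR161.1 was the more abundant product in all 12 libraries, and the ratio was lowest in wild-type total small RNA and highest in AGO1-IP of the mutants. Put as a share, miR161.2 made up 42.1% and 17.2% of the MIR161 reads in wild-type total small RNA, 9.82% to 12.8% in the total libraries of the mutants and 6.44% to 9.70% in AGO1-IP.

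AGO1-IP held a higher ratio than total small RNA in every genotype, with no overlap between the fractions. The log2 ratio was higher by 1.91 in wild type, 0.91 in atprmt5-2 and 0.46 in atprmt5-6. Over the 3 genotypes the mean difference was 1.09 (two-sided exact permutation within genotype, p = 0.00926, the smallest that 216 assignments allow). Without wild-type total replicate 1 it was 0.79 with the same p. With labels exchanged only between libraries of the same order, the exact permutation p was 0.0312, the smallest that 64 assignments allow.

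The mutants held a higher ratio than wild type in both fractions, again with no overlap. The log2 ratio was higher by 1.43 and 1.82 in total small RNA of atprmt5-2 and atprmt5-6, and by 0.43 and 0.36 in AGO1-IP. Pooled over alleles and fractions the difference was 1.01 (two-sided exact permutation within fraction, p = 0.00444, the smallest of 225 assignments). That p treats total and AGO1-IP libraries as independent. The labels number total libraries 1 and 2 and AGO1-IP libraries 1 and 3, so which of them share an extract is not settled by the labels. When the libraries of both fractions were paired by order within a genotype and kept together, the exact permutation p was 0.0667, the smallest that 15 assignments allow, so such a test cannot pass 0.05.

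Within single fractions the difference was 1.62 for total and 0.39 for AGO1-IP libraries, each with an exact permutation p of 0.0667, the smallest of 15 assignments. Without wild-type total replicate 1 the pooled difference was 0.56 and that in total small RNA 0.72. Only 1 wild-type total library then remains, so these sizes are given without a test. The effect in total small RNA exceeded that in AGO1-IP by 1.23, and by 0.32 without that library. An exact permutation of genotype labels within fractions gave p = 0.164 for the 1.23. It cannot judge whether the effects differ, because it assumes no genotype effect in either fraction. The part that the depth of wild-type total replicate 1 has in these values was not tested.

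**Figure D4:**
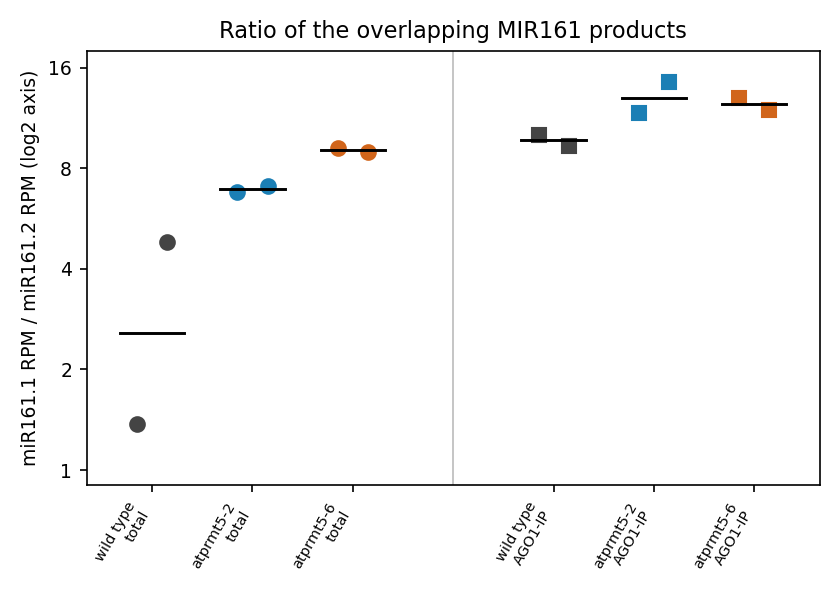
Ratio of miR161.1 RPM to miR161.2 RPM in each library on a log2 axis (circles, total; squares, AGO1-IP), with the geometric mean of each group as a black line. Wild-type total libraries lie at 1.37 and 4.83, mutant total libraries between 6.80 and 9.18, and AGO1-IP libraries between 9.31 and 14.5.

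The sum of both MIR161 products was mostly miR161.1 (57.9% to 93.6% by library), so it follows that product by construction. In total small RNA, MIR161 reads summed to 1700 and 2256 RPM for wild type, 3794 and 2863 RPM in atprmt5-2 and 3774 and 3125 RPM in atprmt5-6. In AGO1-IP the sum was 5190 and 4704 RPM in wild type and between 5677 and 6473 RPM in the mutants. The mutant libraries lay above those of wild type in both fractions.

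Other precursors with paired products served as a comparison for the MIR161 ratio. miR1886.1 and miR1886.2 also overlap by 12 nt, but there the second product dominated, with a ratio of the first to the second between 0.0364 and 0.190. In AGO1-IP that ratio was 0.0503 and 0.0364 in wild type and 0.0907 to 0.190 in the mutants, without overlap. In total small RNA it was 0.0764 and 0.106 in wild type, overlapped by atprmt5-2 (0.0766 and 0.113), while atprmt5-6 lay just above (0.107 and 0.134). miR780.1 and miR780.2, which do not overlap, had a ratio of 0.122 and 0.132 in wild-type total small RNA and 0.0938 to 0.112 in the mutants, and 0.134 and 0.136 against 0.0755 to 0.112 in AGO1-IP. The miR780 ratio was lower in all mutant libraries than in those of wild type of the same fraction, opposite to MIR161, and none of these differences was tested against that of MIR161. The pairs of miR779 and miR869 did not reach 3 reads of both products in any library, and 1 product of the miR829 pair is 24 nt long.

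Guides that start phased small RNAs, among them those acting on PPR, TAS and receptor transcripts, formed a list of 10 with the members, of which 7 were tested. In total small RNA 1 was called higher in each allele, miR161.1, and in atprmt5-6 1 was called lower, miR390b-5p, the AGO7-bound guide of TAS3 (-0.87, SE 0.27, adjusted p = 0.0431). Of all tested miRNAs 15.6% and 20.3% were called. The list medians were -0.72 and -0.63, beside -0.44 and -0.67 for all tested miRNAs. In AGO1-IP limma called 0 of the 7 in both alleles, beside 3.91% and 0.781% of all tested miRNAs, with list medians of 0.56 and 0.14 beside 0.04 and -0.14.

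In loading, miR390a-5p and miR390b-5p, annotated copies of 1 mature sequence, fell in every genotype, by 3.70 and 3.57 in wild type (adjusted p = 1.81e-06 and 1.42e-06). miR393a-5p and miR393b-5p, also copies of 1 sequence and guides of auxin receptor transcripts, rose by 1.87 and 1.78 in atprmt5-2 (adjusted p = 0.00208 and 0.00202) and did not pass in wild type or atprmt5-6. These are its 21 nt reads, and its 22 nt reads, given with those of miR173 and MIR472, stood higher in AGO1-IP in all genotypes. The list had 1 higher and 2 lower calls in wild type, 4 and 2 in atprmt5-2 and 2 and 2 in atprmt5-6, where 40.6%, 55.5% and 60.2% of all tested miRNAs were called, with medians of -0.15, 0.97 and 0.47 beside 0.23, 0.62 and 0.69.

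miR173-5p, miR472-5p and miR828 were too rare at 21 nt to be tested. miR173-5p, which acts on TAS1 and TAS2, is mainly a 22 nt guide. In RPM of 22 nt reads it stood at 283 ± 2.97 in AGO1-IP of wild type, 647 ± 160 in atprmt5-2 and 481 ± 24.1 in atprmt5-6 (SD, n = 2), beside 62.4 ± 11.5, 86.0 ± 24.5 and 71.7 ± 4.84 in total small RNA. For MIR472 the 22 nt guide is the 3p arm, at 119 ± 3.17, 254 ± 67.6 and 153 ± 4.30 in AGO1-IP. Its total libraries were at 59.4 ± 15.7, 33.3 ± 13.0 and 25.8 ± 8.92. miR393a-5p at 22 nt stood at 38.4 ± 7.07, 47.0 ± 14.7 and 31.6 ± 3.56 in total small RNA of wild type, atprmt5-2 and atprmt5-6, and at 221 ± 44.3, 438 ± 159 and 331 ± 36.6 in AGO1-IP. miR393b-5p moved from 50.8 ± 3.60, 51.6 ± 16.3 and 35.7 ± 6.32 in total small RNA to 220.3 ± 31.1, 520 ± 166 and 297 ± 11.7 in AGO1-IP. Both total libraries lay below both AGO1-IP libraries for each of these guides in every genotype. Values of 22 nt are on another scale than those of 21 nt and were not tested.

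miRNAs with profiles most like those of the members were found by Pearson's r of log2(RPM + 1) over the 12 libraries, after the mean of each fraction was removed, and are given as a description. For miR161.1 they were miR165a-3p (r = 0.89; sequence shared with miR165b), miR5637 (r = 0.85) and miR843 (r = 0.77). For miR161.2 they were miR827 (r = 0.88), miR781a, identical to miR781b (r = 0.86), and miR447a.2-3p (r = 0.85). For miR400 they were miR170-5p, identical to miR171a-5p (r = 0.91), miR158a-5p (r = 0.89) and miR168a-3p (r = 0.87). miR161.1 and miR161.2 ran opposite to each other (r = -0.71), but over the 11 libraries without wild-type total replicate 1 that r was 0.09. Without it the r of miR161.2 also fell to 0.60 with miR827 and 0.57 with miR781a, that of miR161.1 with miR165a-3p was 0.75, and the others listed stayed between 0.81 and 0.93. The points share library, depth and genotype, so these values do not separate the members' own variation from that of the library.

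In order of level, miR161.1 was always the highest of the members, then miR161.2, then miR400. miR161.1 ranked 17 to 24 among miRNAs of its library, miR161.2 ranked 28 to 35, and miR400 ranked 83 to 136. No library reversed that order, and over all libraries the ranges of 984 to 6056, 313 to 716 and 2.72 to 20.2 RPM stayed apart.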

How the data were processed

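Small RNAs of 18 to 30 nt were sequenced from 12 libraries, each deposited by the authors as 4 tables by read length (21, 22, 23 and 24 nt), 48 in all. Per the submitters' processing notes, Trimmomatic 0.36, Bowtie2, SAMtools 1.9 and TAIR10 were used, and mismatch handling is not given in the sources used here. The deposited values are RPM with a denominator of their own for each library and length. All listed 21 nt values (100%) were whole multiples of 1 read within 0.01 reads, so reads and denominators were recovered. A missing value was taken as 0. The labels number replicates 1 and 2 in total and 1 and 3 in AGO1-IP, and libraries of both fractions were paired by order only in alternatives.

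The main test was limma 3.58.1 (R 4.3.3) on log2(RPM + 1) for miRNAs with a mean of at least 5 RPM, 128 of 428, with 6 groups in 1 fit, an intensity trend and Benjamini-Hochberg adjustment over all 128, called at 0.05. Counts were also tested with edgeR 4.0.16, which with the authors' denominators called 15 and 23 miRNAs in total small RNA of atprmt5-2 and atprmt5-6, and with DESeq2 1.42.0. Log2 ratios were compared by exact two-sided permutation. Intervals of reads are 95% Poisson and cover counting error only. 427 of 428 names matched RefSeq sequences of TAIR10.1, used for sequences and sites.

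The members and lists were chosen with earlier results of these data known. Named miRNAs are the members, the 3 distinct tested sequences closest in profile to each, called members of the guide list and products of other paired precursors. The 23 nt table of wild-type total replicate 1 repeated its 21 nt values and was not used.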

Additional observations from a re-analysis of the deposited data

Results flagged for a closer look

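The 23 nt table of wild-type total replicate 1 listed all members, which no other table of 22, 23 or 24 nt did: miR161.1 at 334 RPM, miR161.2 at 243 RPM and miR400 at 2.97 RPM. It listed the same 195 names as the 21 nt table of that library, each at 0.3397 times its 21 nt value, where the other 11 tables of 23 nt listed 4 to 8 names. These values are thus the 21 nt values over another denominator, and were left out.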

How the results depend on the processing

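The ratio of the MIR161 products kept its direction under all alternatives run; RPM + 5 moved it by less than 0.01, and summing 22 nt reads was not run because no member was listed there. Its mutant effect with total and AGO1-IP libraries kept together, chosen after the data were seen, was 1.01 (exact permutation p = 0.0667). No member call changed with another pseudocount or with edgeR on the authors' denominators. Without a filter the loading calls in atprmt5-6 of miR161.1 (0.86) and miR400 (1.07) were lost, and at a mean of at least 1 RPM that of miR400 (1.07).

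Scaled to miRNA reads, calls were gained for miR400 in total (-1.21 and -1.20) and for miR161.2 loading in wild type (-1.71). Loading of miR161.1 in wild type (0.20) and miR400 in atprmt5-2 (0.46) lost its call. Signs turned for loading of miR400 in wild type (-1.15) and atprmt5-6 (-0.16), of miR161.1 (-0.41 and -0.56) and miR161.2 (-1.31 and -1.01) in the mutants, and, at values near 0, for miR161.2 in AGO1-IP of atprmt5-6 (0.00015) and miR400 between alleles in total (0.0057). Centring on the median miRNA turned miR161.2 in total (0.20 and 0.17), in AGO1-IP of atprmt5-6 (0.12), in wild-type loading (0.42) and in loading differences (-0.24 and -0.052), and the allele differences of miR400 in total (0.23) and miR161.1 in AGO1-IP (0.10), and called miR400 loading in wild type (0.87).

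With TMM in edgeR, loading in atprmt5-2 and atprmt5-6 was 0.081 and 0.058 for miR161.1 and 0.86 and 0.43 for miR400, no longer called, and -0.80 and -0.40 for miR161.2, now called lower in atprmt5-2 (adjusted p = 0.0438). Signs also turned for miR161.2 in atprmt5-2 total (0.15) and its loading difference (-0.38), miR400 loading in wild type (-0.0027) and miR161.1 between alleles in AGO1-IP (0.11). With DESeq2 the same values were 0.16 and 0.087, 0.97 and 0.46, -0.74 and -0.37, 0.15, -0.17, -0.20 and 0.060, miR161.2 in AGO1-IP of atprmt5-6 was 0.10, and miR161.2 loading was called lower in wild type (-0.58, adjusted p = 0.048) and atprmt5-2 (adjusted p = 0.00962).

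Fitting 1 fraction alone lost miR161.1 in total (1.09 and 1.19). Replicate differences of wild type correlated with those of atprmt5-2 and atprmt5-6 at -0.10 and -0.07 in total, where the mutants correlated with each other at 0.63, so the numbers do not pair all total libraries. In AGO1-IP the 3 correlations were 0.23, 0.35 and 0.64, all above 0, which does not settle whether the numbers pair the libraries. There the block changed no member call in comparisons between genotypes. A replicate block within fraction gained calls in atprmt5-6 total for miR161.2 (-0.63) and miR400 (-1.06). In that fit loading is fitted at the first replicate number of each fraction, not averaged over both, so it cannot judge the loading calls. So read, calls in atprmt5-6 were lost for miR161.1 (0.89) and miR400 (0.72). Signs turned for loading of miR400 in wild type (-0.092) and of miR161.2 in atprmt5-2 (-0.20). For the ratio the replicate block gave an exact permutation p of 0.0312 for AGO1-IP against total and 0.0123 for mutants against wild type. These are the smallest that 64 and 81 assignments allow. The test of mutants treats total and AGO1-IP libraries as independent, and it blocks total libraries by numbers that do not pair them all. The block of total with AGO1-IP changed no member call.

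Leaving out 1 library at a time gave ranges, in atprmt5-2 and atprmt5-6 total, of 0.62 to 1.55 and 0.73 to 1.65 for miR161.1, -0.79 to 0.10 and -1.07 to -0.18 for miR161.2 and -1.61 to -0.48 and -1.28 to -0.85 for miR400. Loading in wild type, atprmt5-2 and atprmt5-6 ranged over 1.26 to 2.19, 0.77 to 1.16 and 0.72 to 0.99 for miR161.1, -0.63 to 0.25, -0.17 to 0.29 and 0.28 to 0.52 for miR161.2 and 0.04 to 0.47, 1.09 to 2.21 and 0.92 to 1.22 for miR400. Loading differences ranged over -0.20 to 0.69 for miR161.2 in atprmt5-2. miR161.2 in AGO1-IP of atprmt5-6 ranged from -0.10 to 0.022, and allele differences over -0.10 to 0.30 for miR161.1 and -0.59 to 0.54 for miR400 in total, and -0.11 to 0.10 for miR161.1 and -0.0034 to 0.12 for miR161.2 in AGO1-IP. The ratio difference in total ranged from 0.72 to 2.53. The number of miRNAs called in total ranged over all alternatives from 3 to 38 in atprmt5-2 (main 20) and 2 to 67 in atprmt5-6 (main 26). With 3 to 16 reads per total library, counts of miR400 limit what these data can show.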
